A study of Mus musculus with 10 samples.

Results

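Expression of 40 genes of DNA replication and cell division was examined in livers of tumour-bearing mice with and without cachexia. The 40 were taken as a named list of S, G2 and M phase genes, and all 40 were found, by GENCODE M21 symbol, among the 43629 genes of the count table. Livers came from 10 male mice of a genetically engineered, Cre-inducible lung cancer model with floxed Lkb1 (Lkb1 flox/flox), which had been backcrossed to FVB. Lung tumours had been started in all 10 adult mice by adenovirus encoding Cre given through the nose, so that all 10 carried the same alleles and agent. The labels divide them into 5 non-cachectic mice (NCACS, mice 11 to 15), whose recorded weight change ran from -3% to -14%, and 5 cachectic mice (CACS, mice 16 to 20), from -29% to -33%. Tumour-free mice were not analysed here, so the comparison is between mice that all bore tumours, and the study had assigned them to a group by their weight loss. In this model recombination follows the virus and not a tissue-specific promoter, and the tumours lie in the lung, so the livers were sampled as host tissue.

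Cells that enter the cycle first license their origins by loading the MCM helicase, then make nucleotides and copy the DNA in S phase, and finally build a spindle and divide. E2F transcription factors switch on the licensing and synthesis genes, and the MuvB complex with B-MYB and FOXM1 switches on the mitotic genes later. Most hepatocytes of an adult liver rest outside the cycle, although many are polyploid, and they re-enter it after injury or partial removal of the organ. In a whole liver these transcripts can come from hepatocytes or from any other dividing cell, and fewer cells of a type and less RNA per cell cannot be told apart.

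E2f1, an activating E2F factor, was lower in CACS livers by 1.07 on the log2 scale. In edgeR it was the only 1 of the 33 tested members past the test threshold, where 1.92% of all tested genes were lower past it. With a liver left out, its edgeR adjusted p ran from 0.0300 to 0.0664, so not every such fit kept it past the threshold. Among the 33 tested members, the mitotic and licensing ones with the largest differences lay 1.06 to 1.54 log2 units lower in CACS livers. They were Cdc20, Top2a, Mcm5, Bub1b, Mki67 and Mcm2, and none passed the threshold in edgeR. At that threshold DESeq2 placed 6 members lower (E2f1, Mcm2, Mcm4, Mcm5, Bub1b and Cdc20), beside 4.62% of the genes it gave an adjusted p. Members of DNA synthesis and nucleotide supply did not share that direction, with 2 lower and 3 higher, nor did the tested cyclins and CDK1, also with 2 lower and 3 higher. No member was higher past the threshold.

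Each library held 31459179 to 40746178 reads counted over genes, a range of 31945328 to 38306888 in NCACS livers and of 31459179 to 40746178 in CACS livers. At that depth 10 members had a mean count under 20 reads per liver, 12 had a mean of at least 100, and the median member had 42.8. The test was the quasi-likelihood F-test of edgeR, run on counts scaled by trimmed mean of M values (TMM), with Benjamini-Hochberg adjustment over all 14143 genes kept by edgeR's filter on low counts and a threshold of 0.05 on the adjusted p. The filter kept 33 of the 40 members and removed Ccnb1, Cdc6, Plk1, Bub1, Tpx2, Cenpe and Cenpf, whose log2 fold changes below are from a fit without a filter. Levels are given as counts or as TMM-normalized CPM (counts scaled to the library's size in megareads), and fold changes are log2 values of CACS over NCACS with their standard errors. Each liver carries its own mouse number in the titles, and no pair within a group agreed within sampling noise (smallest chi-square per degree of freedom 46.1).

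Among all tested genes, 1.92% were lower and 1.89% were higher in CACS livers past the threshold, and 50.6% had a log2 fold change below 0, with a median of -0.01. Of the 33 tested members 25 were lower and 8 higher, with a median log2 fold change of -0.41. Past the threshold 1 of the 33 was lower (E2f1) and 0 were higher. At an unadjusted edgeR p under 0.05, 8 members were lower (E2f1, Cdt1, Mcm2, Mcm4, Mcm5, Bub1b, Cdc20 and Kif11) and 1 was higher (Rrm2), where the same rule marked 10.3% of all tested genes as lower and 11.3% as higher. Without the filter 32 of the 40 had a log2 fold change below 0 and 8 above, and the median was -0.49, against -0.02 over all 24746 genes in that fit. In log2 CPM the 5 CACS livers lay entirely below the 5 NCACS livers for 3 members (E2f1, Mcm4 and Bub1b), where 3.13% of all tested genes did so, and entirely above for none. DESeq2 placed 6 members lower past the same threshold (E2f1, Mcm2, Mcm4, Mcm5, Bub1b and Cdc20) and none higher, against 4.62% of the 15602 genes it gave an adjusted p. The number of members called therefore depended on the tool, and the edgeR and DESeq2 counts are given side by side.

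**Figure D1:**
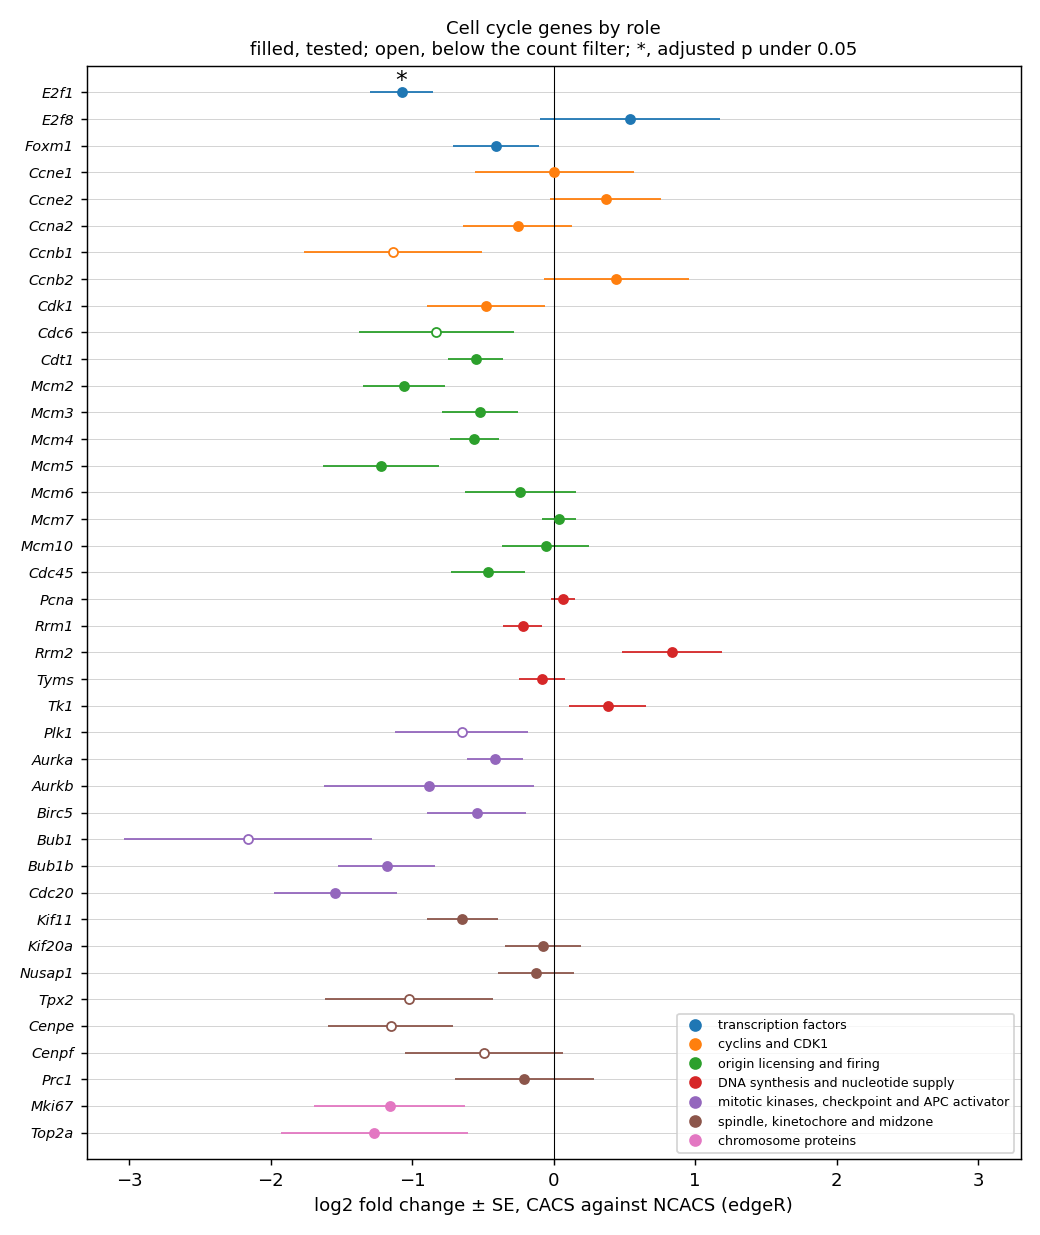
Log2 fold change (x axis, CACS over NCACS, with its standard error as a bar) of the 40 cell cycle genes (y axis), coloured by role, from edgeR on 5 livers a group. Filled points passed the filter on low counts, open points come from the fit without a filter, and the star marks E2f1, the only gene with an adjusted p under 0.05. The 16 genes of the mitotic, spindle and chromosome groups all lie to the left of 0, while 3 of the 5 DNA synthesis genes lie to the right.

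Promoters are shown for 5 members, Mcm2, Mcm5, Bub1b and Cdc20, which DESeq2 called, and Top2a, which had the most CCAAT boxes among these. Top2a was called by neither edgeR nor DESeq2. Those of E2f1 and Mcm4 are not shown, because the E2f1 entry starts inside the GENCODE gene and Mcm4 had none. Letters are from RefSeq (GRCm38.p6), written 5′ to 3′ on the gene's strand, from 250 bases before the RefSeq start up to the RefSeq or GENCODE M21 start, whichever comes first. Capitals mark the E2F motif in its form TTCCCGC, its form TTGGCGC, its form TTCGCGC or its form TTGCCGC, the cell cycle homology region (CHR, TTTGAA) read by the MuvB complex, and the CCAAT box read by NF-Y, each on either strand.
Mcm2, chr6:88898781-88899030, minus strand: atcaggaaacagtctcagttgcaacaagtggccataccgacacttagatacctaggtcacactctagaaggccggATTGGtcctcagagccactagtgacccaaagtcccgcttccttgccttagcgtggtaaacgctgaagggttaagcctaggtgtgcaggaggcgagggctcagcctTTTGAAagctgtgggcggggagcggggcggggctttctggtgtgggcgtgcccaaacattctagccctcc
Mcm5, chr8:75109259-75109508, plus strand: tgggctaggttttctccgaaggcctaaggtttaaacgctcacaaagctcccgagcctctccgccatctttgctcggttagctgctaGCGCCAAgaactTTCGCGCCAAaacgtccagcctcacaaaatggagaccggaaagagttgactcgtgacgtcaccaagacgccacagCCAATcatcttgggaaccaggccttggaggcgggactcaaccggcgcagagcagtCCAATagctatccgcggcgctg
Bub1b, chr2:118597961-118598210, plus strand: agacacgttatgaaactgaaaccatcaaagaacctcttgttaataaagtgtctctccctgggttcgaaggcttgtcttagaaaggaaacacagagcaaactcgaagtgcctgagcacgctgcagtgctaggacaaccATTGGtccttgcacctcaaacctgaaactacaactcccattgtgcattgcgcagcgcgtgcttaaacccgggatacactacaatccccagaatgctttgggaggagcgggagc
Cdc20, chr4:118437353-118437593, minus strand: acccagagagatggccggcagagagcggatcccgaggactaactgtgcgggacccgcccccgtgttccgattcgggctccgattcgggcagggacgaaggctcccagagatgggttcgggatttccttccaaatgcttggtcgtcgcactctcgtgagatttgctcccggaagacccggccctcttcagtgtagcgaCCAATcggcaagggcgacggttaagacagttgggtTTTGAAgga
Top2a, chr11:99024190-99024439, minus strand: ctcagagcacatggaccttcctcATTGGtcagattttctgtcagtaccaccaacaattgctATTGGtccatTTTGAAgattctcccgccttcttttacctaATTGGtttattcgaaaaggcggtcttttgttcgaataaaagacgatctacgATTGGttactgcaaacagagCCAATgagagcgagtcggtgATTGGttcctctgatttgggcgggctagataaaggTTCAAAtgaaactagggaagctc
The Mcm5 promoter held 2 E2F matches, the more distal starting 164 bases before the RefSeq start, and no CHR. The Mcm2, Cdc20 and Top2a promoters held CHR matches, 2 of them in Top2a, and the Bub1b CHR match lay 41 bases into the transcript and is not printed. A match is a run of letters and not a shown binding site.

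Windows of 300 bases, 250 before to 50 after the start, were searched for the 33 members with an entry (35 windows). Foxm1, Ccne2, Ccna2, Mcm4, Aurkb, Kif20a and Tpx2 had none. The E2F motif was in the window of 12 of the 33 members (Ccnb1, Cdc6, Cdk1, Cdt1, E2f8, Mcm3, Mcm5, Mcm6, Mcm7, Mki67, Rrm1 and Rrm2) and in 9.57% of all 32851 windows. A first search with the form TTCCCGC and the form TTGGCGC alone found 11 members and 6.81% of all windows, and the other letter forms were added after that result was seen. CHR was in the windows of 14 members and in 17.9% of all windows, and CCAAT in those of 25 members and in 37.4%. The E2f1 window held none of these motifs, but it starts at a RefSeq start 466 bases inside the GENCODE gene and so does not cover the upstream promoter. Of the members with the E2F motif, E2f8 (0.54), Mcm7 (0.04) and Rrm2 (0.84) had log2 fold changes above 0. The others lay below 0, among them Mcm5 (-1.22) and Mki67 (-1.16), with Ccnb1 and Cdc6 read without a filter. In the fit without a filter 32 of all 40 members lay below 0.

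Among the transcription factors, E2f1 (ENSMUSG00000027490, chr2:154559407-154569892, GRCm38) gave counts of 121, 196, 147, 93 and 83 in NCACS mice 11 to 15 and of 73, 63, 49, 82 and 50 in CACS mice 16 to 20. Its normalized level was 3.59, 4.88, 4.75, 2.80 and 2.56 CPM in the NCACS livers and 1.82, 1.65, 1.60, 2.31 and 1.43 CPM in the CACS livers. The groups did not overlap in CPM, and the lowest NCACS liver, mouse 15, lay just above the highest CACS liver, mouse 19. Mean levels were 3.72 ± 1.07 CPM (SD, n = 5) and 1.76 ± 0.336 CPM (SD, n = 5). The log2 fold change was -1.07 (SE 0.225, edgeR adjusted p = 0.0298, DESeq2 adjusted p = 0.000414). It stayed between -1.19 and -0.96 when each liver was left out in turn, with edgeR adjusted p from 0.0300 to 0.0664, and it passed the threshold in 4 of those 10 fits. The 6 livers whose removal ended the call were NCACS mice 11, 12 and 13 (adjusted p = 0.0612, 0.0582 and 0.0583) and CACS mice 16, 18 and 20 (adjusted p = 0.0626, 0.0559 and 0.0664), all by edgeR.

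E2f8, an atypical E2F that represses E2F targets and is known in liver for its part in polyploidization, varied widely within both groups. Its counts ran from 62 to 357 in NCACS livers and from 97 to 1013 in CACS livers, the last in mouse 18 alone. Its log2 fold change was 0.54 (SE 0.636) and became -0.50 without that liver. Foxm1, the forkhead factor of the mitotic programme, had 18 to 45 counts in NCACS and 18 to 44 in CACS livers and a log2 fold change of -0.41 (SE 0.303). Its exons overlap those of other annotated genes on the same strand, so its counts are uncertain.

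Cyclins and CDK1 showed no shared direction. Cdk1, the kinase that drives entry into mitosis, gave counts of 55, 64, 65, 26 and 15 in NCACS livers and of 46, 33, 15, 23 and 54 in CACS livers. In log2 CPM, NCACS mice 11, 12 and 13 lay above every CACS liver, mouse 14 within the CACS range and mouse 15 below it. The log2 fold change was -0.48 (SE 0.418, edgeR adjusted p = 0.545). Ccnb1, which encodes cyclin B1, the mitotic partner of CDK1, was close to the limit of detection with counts of 15, 13, 5, 3 and 1 in NCACS and 3, 3, 2, 3 and 6 in CACS livers. Mice 11 and 12 stood above the rest, and the log2 fold change in the fit without a filter was -1.14. Ccnb2, the second B-type cyclin, had 11 to 25 counts in NCACS and 2 to 42 in CACS livers and a log2 fold change of 0.44. Ccna2, the cyclin of S phase and G2, lay at -0.25, and the G1/S cyclins Ccne1 and Ccne2 lay at 0.01 and 0.37. None of these passed the threshold, and the sign of Ccne1 changed with the scaling.

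Origin licensing and firing, the largest group, had the most members lower at an unadjusted edgeR p under 0.05, 4 of the 9 tested. The same rule marked 10.3% of all tested genes and 2 of the 5 tested members of the mitotic kinase group. In the licensing group 8 of the 9 had a fold change below 0, against 50.6% of all tested genes. Mcm4 (ENSMUSG00000022673, chr16:15623897-15637400), a subunit of the MCM2–MCM7 helicase, had counts of 136, 277, 171, 134 and 157 in NCACS livers and of 129, 134, 96, 122 and 136 in CACS livers. Every NCACS liver exceeded every CACS liver after normalization, with 4.03 to 6.90 CPM against 3.13 to 3.89 CPM. The log2 fold change was -0.56 (SE 0.171, edgeR adjusted p = 0.0886, DESeq2 adjusted p = 0.0302). Mcm2 and Mcm5, subunits of the same ring, are shown in every liver because DESeq2 called them, a choice made after their values were seen. Mcm2 had counts of 114, 247, 185, 77 and 97 in NCACS and 75, 100, 71, 55 and 57 in CACS livers. The groups met at 2.32 CPM in NCACS mouse 14 and 2.62 CPM in CACS mouse 17, and the log2 fold change was -1.06 (SE 0.291, edgeR adjusted p = 0.0641, DESeq2 adjusted p = 0.00811). Mcm5 had counts of 82, 230, 144, 42 and 53 in NCACS and 45, 64, 25, 64 and 46 in CACS livers. NCACS mice 12 and 13 were far above the rest, NCACS mice 14 and 15 lay among the CACS livers, and the log2 fold change was -1.22 (SE 0.410, edgeR adjusted p = 0.116, DESeq2 adjusted p = 0.0317).

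The subunits of the helicase did not share 1 size of difference. Mcm3 lay at -0.52 (edgeR adjusted p = 0.285), Mcm6 at -0.23 (adjusted p = 0.776) and Mcm7 at 0.04 (SE 0.118, adjusted p = 0.890, all by edgeR). Mcm7 was the most abundant of the 6 subunits per kilobase in all 10 livers, and stood at 11.3 to 16.1 CPM in NCACS and 11.1 to 15.3 CPM in CACS livers, and its exons overlap Mir25 and Mir93 on the same strand. Summed over the 6 subunits, levels ran from 26.4 to 48.9 CPM in NCACS and from 26.0 to 31.5 CPM in CACS livers. Only NCACS mice 12, 13 and 15 exceeded the highest CACS sum, while mice 11 and 14 lay within the CACS range. Among the loading factors, Cdt1 lay at -0.55 (edgeR adjusted p = 0.126) and Cdc6 at -0.83 without a filter, on 2 to 33 counts. Cdc45, which joins the helicase when origins fire, lay at -0.46 (edgeR adjusted p = 0.326).

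Mcm10, a replication initiation factor, was the most abundant member per kilobase of exon and made up 26.2% to 58.1% of the summed CPM of the 40 genes. Its counts were 4946, 5198, 4225, 4094 and 1986 in NCACS livers and 3518, 6317, 3383, 5610 and 1830 in CACS livers. Each group held 1 liver with far fewer counts than its others, mouse 15 and mouse 20, and the log2 fold change was -0.06 (SE 0.305, edgeR adjusted p = 0.939). At 15.2 CPM per kilobase it stood 1.95 times above the next member. The summed level of the list overlapped between the groups both with Mcm10 (173 to 312 CPM in NCACS, 199.8 to 296 CPM in CACS) and without it (111 to 175 and 114 to 169 CPM).

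DNA synthesis and nucleotide supply held the next most abundant members per kilobase, Pcna and Tk1. Pcna, the sliding clamp of DNA polymerase, had counts of 652, 785, 577, 560 and 555 in NCACS livers and of 724, 690, 640, 649 and 712 in CACS livers. All 10 livers lay between 16.9 and 20.9 CPM, and the log2 fold change of 0.06 had a standard error of 0.0852 (edgeR adjusted p = 0.715). Tk1, thymidine kinase of the salvage pathway, had counts of 1572, 1546, 868, 814 and 510 in NCACS and 1793, 1155, 1378, 975 and 1830 in CACS livers. The groups overlapped, with a log2 fold change of 0.38 (SE 0.271, edgeR adjusted p = 0.445). Rrm1 and Rrm2 encode the large and small subunits of ribonucleotide reductase, which makes deoxyribonucleotides. Rrm1 lay at -0.22 (SE 0.136) and Rrm2 at 0.84 (SE 0.353, edgeR adjusted p = 0.195), the latter with 55 to 130 counts in NCACS and 96 to 316 in CACS livers. The highest Rrm2 count was in CACS mouse 20 alone. Tyms, thymidylate synthase, lay at -0.08 (SE 0.164).

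**Figure D2:**
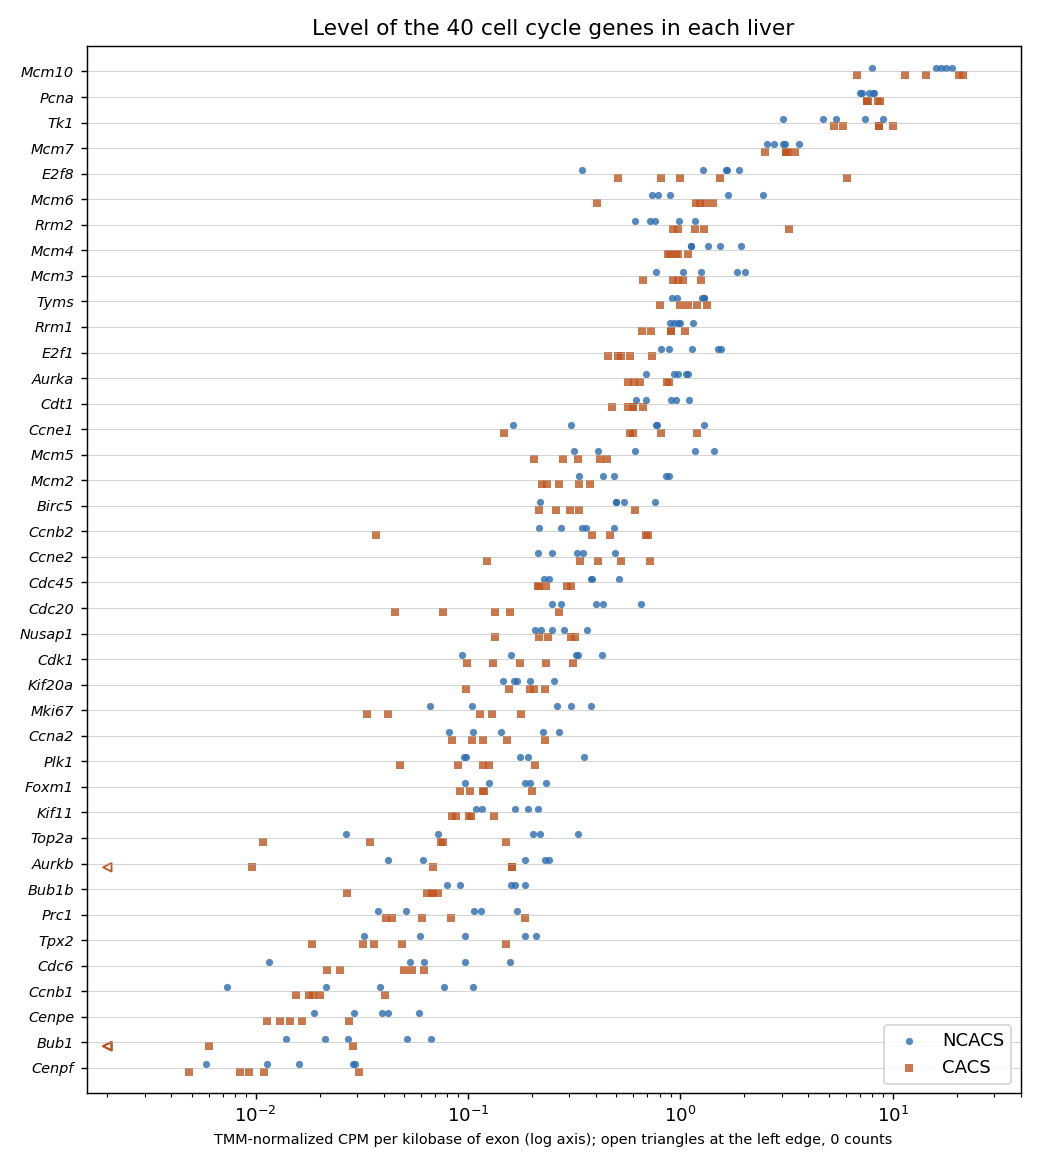
TMM-normalized CPM per kilobase of exon (x axis, log scale) of the 40 genes (y axis, ordered by mean) in each of 5 NCACS livers (circles) and 5 CACS livers (squares). Open triangles at the left edge mark livers with 0 counts. Means run from 0.0155 for Cenpf to 15.2 for Mcm10. Mcm10, Pcna and Tk1 are the highest genes, while most mitotic genes lie in the lower part.

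Per kilobase, so that genes can be compared, mean levels over the 10 livers ran from 0.0155 CPM for Cenpf to 15.2 CPM for Mcm10 with a median of 0.338 CPM. Pcna (7.80 CPM per kilobase) and Tk1 (6.80 CPM per kilobase) followed Mcm10. The spread between livers of a group exceeded the spread expected from counting alone in both groups for all 40 members.

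Mitotic kinases, checkpoint proteins and the anaphase activator had a median log2 fold change of -0.89 over all 7 members in the fit without a filter, and each of the 7 was below 0 there. Bub1b (ENSMUSG00000040084, chr2:118598211-118641591), which encodes the spindle checkpoint protein BUBR1, had counts of 24, 32, 21, 13 and 11 in NCACS and 11, 11, 9, 11 and 4 in CACS livers. After normalization the groups did not overlap, with 0.340 to 0.797 CPM in NCACS and 0.115 to 0.310 CPM in CACS livers. Its difference on the log2 scale was -1.18 (SE 0.346, edgeR adjusted p = 0.0784, DESeq2 adjusted p = 0.0445). Cdc20, the activator of the anaphase-promoting complex, is shown in every liver because DESeq2 called it, again after its values were seen. Its counts were 41, 30, 25, 17 and 15 in NCACS and 10, 19, 9, 3 and 5 in CACS livers. CACS mouse 17 reached into the NCACS range, and the log2 fold change was -1.54 (SE 0.435, edgeR adjusted p = 0.0695, DESeq2 adjusted p = 0.0156). Without that liver it was -1.94, with an edgeR adjusted p of 0.0392.

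The rest of this group had few reads. Aurka and Aurkb encode mitotic kinases of the spindle poles and the centromeres, and lay at -0.41 (edgeR adjusted p = 0.254) and -0.88 (edgeR adjusted p = 0.526). Birc5, the survivin subunit of the Aurora B complex, lay at -0.54 (edgeR adjusted p = 0.395). Bub1, a checkpoint kinase, is shown in every liver for its low counts, a choice made after its values were seen. It was counted 4, 9, 9, 2 and 3 times in NCACS livers and 5, 1, 0, 0 and 0 times in CACS livers. It fell below the filter, and in the edgeR fit without a filter its log2 fold change was -2.16 (adjusted p = 0.257). Plk1, a kinase of mitotic entry and exit, had 7 to 26 counts in NCACS and 4 to 14 in CACS livers. Summed over the 7 members, the level was 4.72 to 8.57 CPM in NCACS and 3.55 to 4.75 CPM in CACS livers, and the groups overlapped, with CACS mouse 17 just above NCACS mouse 15.

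All 7 spindle, kinetochore and midzone members had a log2 fold change below 0 in the fit without a filter, with a median of -0.49. Kif11, the kinesin that separates the spindle poles, had 27 to 64 counts in NCACS and 22 to 35 in CACS livers, with a log2 fold change of -0.65 (SE 0.249, edgeR adjusted p = 0.159). Kif20a, Nusap1 and Prc1, which act at the midzone or bundle microtubules, lay at -0.08, -0.12 and -0.21, each smaller than its standard error (0.269, 0.268 and 0.494). Cenpe, a kinetochore motor, had 5 to 17 counts in NCACS and 3 to 9 in CACS livers. It lay at -1.15 in the fit without a filter (edgeR adjusted p = 0.224). Tpx2, an activator of Aurora A, and Cenpf, a kinetochore protein, lay at -1.02 and -0.49 in that fit. Their edgeR adjusted p-values there were 0.444 and 0.663.

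Both chromosome proteins differed by more than 1 log2 unit and had wide errors. Mki67, the source of the Ki-67 antigen used to stain cycling cells, had counts of 128, 123, 82, 22 and 34 in NCACS and 52, 68, 13, 12 and 40 in CACS livers. Top2a, the topoisomerase that disentangles replicated chromosomes, had counts of 100, 73, 61, 8 and 21 in NCACS and 27, 52, 3, 11 and 24 in CACS livers. For both genes NCACS mice 11, 12 and 13 exceeded every CACS liver, and NCACS mice 14 and 15 lay within the CACS range. The log2 fold changes were -1.16 (SE 0.536, edgeR adjusted p = 0.235) for Mki67 and -1.27 (SE 0.661, edgeR adjusted p = 0.292) for Top2a. For both genes the spread between mice of the same label was wide, and the groups overlapped.

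**Figure D3:**
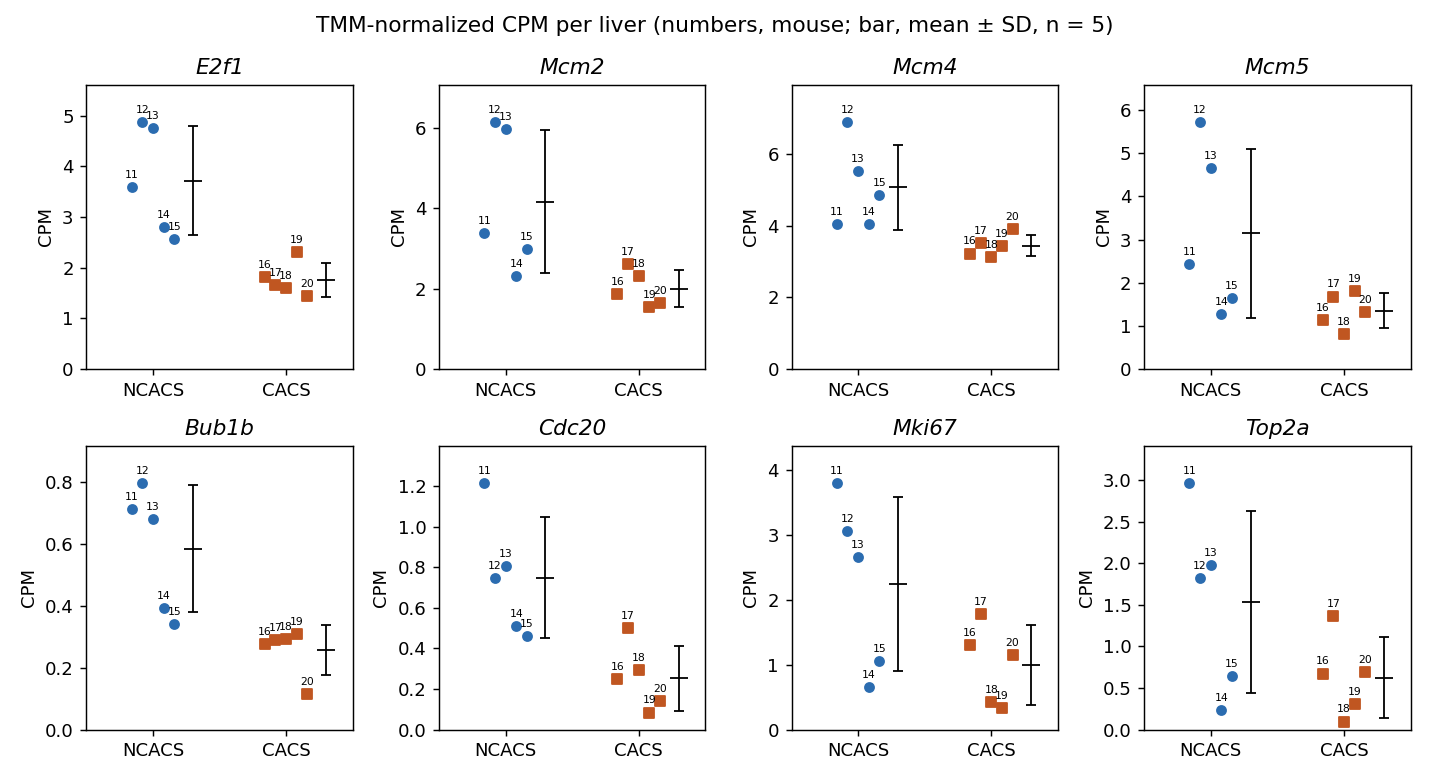
TMM-normalized CPM (y axis, from 0) of 8 cell cycle genes in 5 NCACS and 5 CACS livers (points, numbered by mouse), with the group mean and SD as a bar (n = 5). E2f1, Mcm4 and Bub1b do not overlap between the groups, and for Mki67 and Top2a NCACS mice 14 and 15 lie within the range of the CACS livers.

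Some livers were high or low for many members at once. NCACS mouse 11 was the highest of the 10 livers for 13 of the 40 members and mouse 12 for 11, against 7.08% and 5.36% of all tested genes. Mouse 11 was highest for 9 of the 16 members of the mitotic, spindle and chromosome groups. NCACS mice 11, 12 and 13 were the lowest liver for 0 members each, where they were so for 7.22%, 4.42% and 15.5% of all tested genes. NCACS mice 14 and 15 were lowest for 4 and 5 of the 40, near their 9.86% and 14.8% of all tested genes. Of the CACS livers, mouse 20 was the lowest for 10 members, mouse 18 for 8 and mouse 19 for 7, against 13.6%, 8.60% and 9.15% of all tested genes. Averaged over the 16 mitotic members, deviations from each gene's mean log2 CPM were 0.97, 0.67, 0.62, -0.27 and -0.13 in NCACS mice 11 to 15. They were -0.20, 0.22, -0.66, -0.76 and -0.46 in CACS mice 16 to 20, so that CACS mouse 17 lay above NCACS mice 14 and 15. Members share libraries, so these counts describe livers and are no independent replicates of the comparison. Recorded weight change did not order the NCACS livers in the same way, since mice 14 and 11 had lost the least (-3% and -4%) and lay at opposite ends for the mitotic members.

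**Figure D4:**
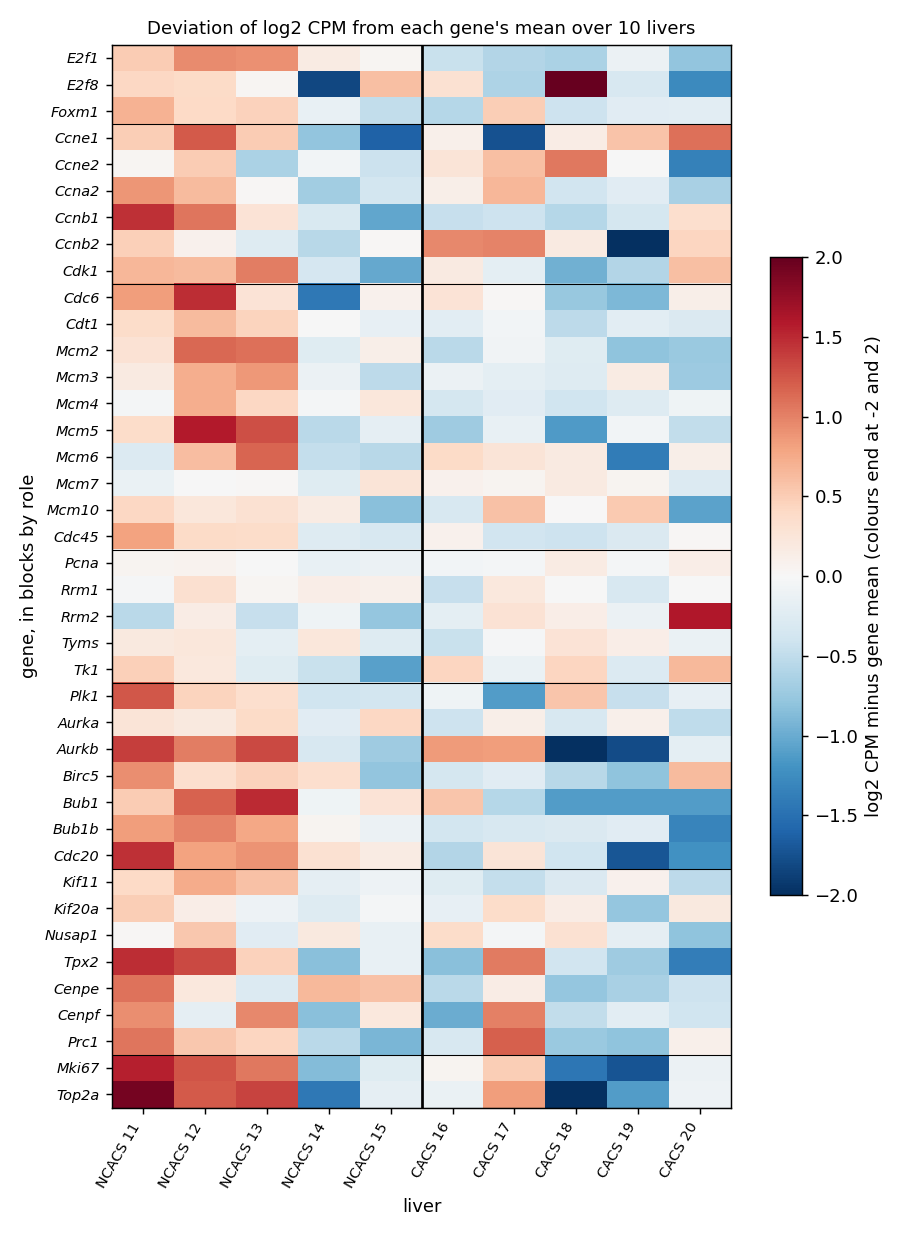
Deviation of log2 CPM from each gene's mean over the 10 livers (colour, red above and blue below) for the 40 genes (y axis, in blocks by role) in NCACS mice 11 to 15 and CACS mice 16 to 20 (x axis). NCACS mice 11, 12 and 13 are above the mean for most mitotic genes, mean deviations 0.97, 0.67 and 0.62, and the DNA synthesis block is pale except for Rrm2 and Tk1 in single livers.

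A further 126 cell cycle genes, drawn up by role with the same process in mind, were read from the same fit. Of these 97 were tested, 74 with a fold change below 0 and 23 above, and the median was -0.15. Past the threshold 2 were lower, beside 1.92% of all tested genes, and none was higher. One of them, Cdca8, the borealin subunit of the Aurora B complex, had counts of 41, 67, 46, 34 and 24 in NCACS and 23, 12, 13, 20 and 24 in CACS livers. Its log2 fold change was -1.26 (SE 0.289, edgeR adjusted p = 0.0375). That call depended on single livers. With a liver left out, the edgeR adjusted p of Cdca8 ran from 0.0374 to 0.0789 and passed only without NCACS mouse 15. None of the 5 tested CDK inhibitors passed the threshold, and Cdkn1a, which encodes p21, lay at 0.17 (SE 0.619).

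Ccnd1, the G1 cyclin that links growth signals to the cycle, is given because DESeq2 called it and its counts are high, a choice made after its values were seen. Its counts were 1101, 1090, 675, 955 and 211 in NCACS and 469, 295, 154, 327 and 413 in CACS livers. All NCACS livers but mouse 15 exceeded every CACS liver, and the log2 fold change was -1.36 (SE 0.366, edgeR adjusted p = 0.0611, DESeq2 adjusted p = 0.00376). Leaving out each liver moved its edgeR adjusted p between 0.0141 (without NCACS mouse 15) and 0.125 (without NCACS mouse 11).

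Markers of other cell types were read from the same fit, and the summed level of each list below overlapped between the groups. All 9 Kupffer cell and macrophage markers had a fold change below 0, 1 of them past the threshold (Cd5l, -0.90, edgeR adjusted p = 0.0374), and their sum was 211 to 365 CPM in NCACS and 134 to 278 CPM in CACS livers. All 5 pan-leukocyte markers were below 0 with none past the threshold, at a sum of 29.2 to 71.4 CPM in NCACS and 21.5 to 43.7 CPM in CACS livers. All 5 tested of 6 B and plasma cell markers were below 0 with none past it, at 4.03 to 9.58 and 1.66 to 4.77 CPM. Of 9 T and NK cell markers 4 of 6 tested were below 0, at 3.20 to 8.34 and 2.89 to 4.87 CPM. Of 11 neutrophil and precursor markers 2 of 3 tested were below 0, at 1.66 to 19.6 and 1.36 to 9.48 CPM, and Ctsg had 0 counts in all 10 livers. Hepatocyte markers summed to 74231 to 124032 CPM in NCACS and 117437 to 143075 CPM in CACS livers, with 7 of 8 above 0 and none past the threshold. The part of leukocytes and other cells in the lower cell cycle transcripts was not tested.

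Further marker lists were erythroid (229 to 459 CPM in NCACS and 288 to 482 CPM in CACS livers, 2 of 5 tested below 0), megakaryocyte (4.03 to 6.75 and 5.19 to 9.73, 1 of 2) and sinusoidal endothelial (130 to 184 and 162 to 212, 1 of 6). They were also stellate (59.1 to 144 and 57.7 to 121, 4 of 6) and cholangiocyte markers (33.8 to 53.0 and 20.4 to 49.8, 4 of 6). None of their members passed the threshold. Lung epithelium and tumour markers summed to 3.06 to 8.47 CPM in NCACS and 3.55 to 12.2 CPM in CACS livers, with Sftpa1 higher past the threshold (1.27, edgeR adjusted p = 0.0323) and Nkx2-1 at 0 to 2 counts. With a liver left out, Sftpa1 passed the threshold in 3 and Cd5l in 2 of the 10 edgeR fits.

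Exons of 11 members overlap an annotated gene on the opposite strand, and those of Foxm1, Mcm7 and Top2a overlap a gene on the same strand. Whether these members gained or lost counts through the overlap was not tested, and the strand setting of the counting is not given in the sources used here. Of pseudogenes named for members, Ccnb1-ps and Pcna-ps1 had 0 counts in all livers, Pcna-ps2 had 0 to 6 and Ccnb2-ps had 8 to 37, so that the reads of Ccnb2 (2 to 42 counts) may be split with its copy.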

How the data were processed

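Liver RNA of 10 mice was sequenced from stranded mRNA libraries. The deposited values are raw counts per gene, made by the authors with STAR 2.4.1d on GRCm38 and HTSeq 0.6.1 per the labels and the study's methods; the annotation release and strand setting are not given in the sources used here. Symbols, positions and exon lengths came from GENCODE M21, which lacked 1081 of the 43629 identifiers. The study used DESeq2; here edgeR 4.0.16 (R 4.3.3; filterByExpr, TMM, quasi-likelihood test, Benjamini-Hochberg over all genes tested) was the test, with DESeq2 1.42.0, limma 3.58.1 (voom), other scalings and filters, and each liver left out in turn as alternatives. edgeR and DESeq2 were also run on simulated counts with changes larger than those of the tested members. That run gives no measure of error or power for differences of the size seen here. Log2 CPM used a prior count of 2. Groups and mouse numbers came from the sample titles. The study's methods also list a batch correction. The labels name no batch, and none was fitted here. Members and lists were chosen with earlier results of these data known, so their counts are not independent evidence. Values in every liver were given for members past the threshold or with non-overlapping groups, for the 3 highest per kilobase, and for Mki67, Top2a, Cdk1 and Ccnb1, and for others (Mcm2, Mcm5, Cdc20, Bub1 and Ccnd1) chosen after their values were seen. Cdca8 was named as past the threshold. One allele of the mouse model and 1 gene of the further list are not reported here.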

Additional observations from a re-analysis of the deposited data

Results flagged for a closer look

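Within each group the highest or lowest of 5 livers was compared with the others by Dixon's ratio of its gap to the group's range, on log2 CPM, for 80 combinations of member and group. The ratio passed the critical value of 0.71 in 7, and chance alone marks about 1 in 20. The combinations share livers and are not independent, so that share is only a guide. Highest livers were CACS mouse 20 for Ccnb1 (0.767) and for Rrm2 (0.730). Lowest livers were NCACS mouse 14 for E2f8 (0.765), NCACS mouse 15 for Mcm10 (0.800), CACS mouse 19 for Ccnb2 (0.755) and for Mcm6 (0.855), and CACS mouse 20 for Bub1b (0.868). The flagged livers of Ccnb1, Ccnb2 and Bub1b had only a few reads of these genes.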

How the results depend on the processing

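The 10 livers, with a median member at 42.8 counts per liver, limit what could be called. Genes past the threshold numbered 538, 1376 by DESeq2, and 178 (without NCACS mouse 11) to 519 with a liver left out. Lower members numbered 1, 6 by DESeq2, and 0 to 2 with a liver left out (0 without NCACS mouse 11, 12 or 13 or CACS mouse 16, 18 or 20, 2 without CACS mouse 17). No alternative run placed a member higher past the threshold. Lower genes of the further list, 126 in all, numbered 2, 1 with raw library totals, 1 without a filter, 7 by DESeq2, and 0 to 2 with a liver left out. Beside these counts, 1.92% of all tested genes were lower by edgeR, and 4.62% of genes with a DESeq2 adjusted p were lower. Members whose groups did not overlap numbered 3, and 3 to 7 with a liver left out (7 without CACS mouse 17, 5 without NCACS mouse 14 or 15). With all 10 livers, 3.13% of all tested genes did not overlap and were lower in CACS. That share was not computed with a liver left out, and fewer livers separate more easily by chance. The rise can therefore not be read as a result about the members. E2f1 stayed past the threshold in the 8 alternatives that kept all livers. Of the 33 tested members 24 kept their direction in all alternatives run and 9 reversed in at least 1. Ccne1 reversed with RLE factors (-0.000450), upper-quartile factors (-0.0157), raw totals (-0.00592) and at least 10 counts in every liver (-0.00141). With a liver left out, log2 fold changes crossed 0 for Ccne1 (-0.31 to 0.40), E2f8 (-0.50 to 0.79), Mcm6 (-0.38 to 0.12), Mcm7 (-0.0149 to 0.12), Mcm10 (-0.22 to 0.13), Tyms (-0.16 to 0.0122), Kif20a (-0.19 to 0.079), Nusap1 (-0.25 to 0.029) and Prc1 (-0.73 to 0.097). The cause was not tested. No paired analysis was possible because mouse numbers 11 to 15 and 16 to 20 differ between the groups.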
